A study of Mus musculus with 4 samples.

Results

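The 10 genes described here encode the sensors, adaptor, proteases, cytokines and pore-forming proteins of the inflammasome pathway. They were chosen by gene symbol and not by a measured value, although earlier results of these data were known. They are Nlrp6, Nlrp3, Nlrc4, Pycard, Casp1, Casp4, Il18, Il1b, Gsdmd and Gsdmc4. Together they make up 10 of the 55203 genes and 39 of the 141738 transcripts listed in every library. RNA was sequenced from intestine of wild-type C57BL/6NTac mice, adult males of 8 to 12 weeks held specific-pathogen-free (SPF). The RVC group has 2 libraries, from tissue handled with 4 mM ribonucleoside vanadyl complex, an inhibitor of ribonucleases. The fresh frozen group also has 2 libraries, and the protocol text attached to them describes the same RVC rinse, so how the groups differed in handling is known from the titles only. The series was made to give bulk expression values to set beside MERFISH, an imaging method that counts transcripts in tissue sections, and no separate question is stated for RVC against fresh frozen. Each library has its own batch number in the labels, which means that group and batch cannot be told apart. The labels do not say whether a library came from 1 animal, so p-values measure only the spread between these libraries, which may be technical.

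An inflammasome is a protein complex in which a sensor of microbial or damage signals joins, through an adaptor, the protease caspase-1. Active caspase-1 cuts the precursors of interleukin-18 and interleukin-1 beta, and it cuts gasdermin D, whose freed part forms pores in the cell membrane. Caspase-4, called caspase-11 in the older mouse literature, binds bacterial lipopolysaccharide and cuts gasdermin D without an inflammasome sensor. In the intestine, interleukin-18 is made by epithelial cells before any stimulus, whereas interleukin-1 beta is mostly a product of stimulated myeloid cells.

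All values are gene FPKM, a density of sequenced fragments corrected for transcript length and library size, summed over the transcripts of a gene. Where 4 values are given in a row, they stand in the order RVC 1 and 2, then fresh frozen 1 and 2. The number of sequenced fragments is unknown, and fresh frozen 2 was the deepest library, with the others at 72.6% to 81.8% of its relative depth. The tissue label is ileum and the protocol says distal colon. The summed level of 7 colonocyte markers was 12184 to 18191 FPKM, and that of 6 ileal enterocyte markers was 5.35 to 7.26 FPKM. Of the 6, Fabp6 measured 2.70 to 3.96 FPKM and Slc10a2 2.33 to 3.07, while Fgf15 and Apoa4 were listed at 0. Of 7 Paneth cell markers, Mptx2 measured 44.3 to 76.2 FPKM, Lyz1 2.21 to 2.46 and the others at most 0.567. The ileum label was therefore not borne out by its enterocyte markers, and the tissue is called intestine here.

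In these libraries 8 of the 10 genes lay between 8.71 and 482 FPKM, and Il1b and Nlrp3 lay under 1 FPKM in all 4. The mean levels ran in the order Gsdmc4, Il18, Casp1, Gsdmd, Pycard, Nlrp6, Casp4, Nlrc4, Il1b and Nlrp3. The ranges over 4 libraries overlapped for only 2 pairs of neighbours in that order, Il18 with Casp1 and Pycard with Nlrp6. Il18 was above Casp1 within each of the 4 libraries, while Pycard was above Nlrp6 in 2 of 4. Among the 14669 genes with a mean of at least 1 FPKM, Gsdmc4 stood at percentile 98.2, Il18 at 95.7, Casp1 at 95.0, Gsdmd at 93.4 and Nlrc4 at 59.4.

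**Figure D1:**
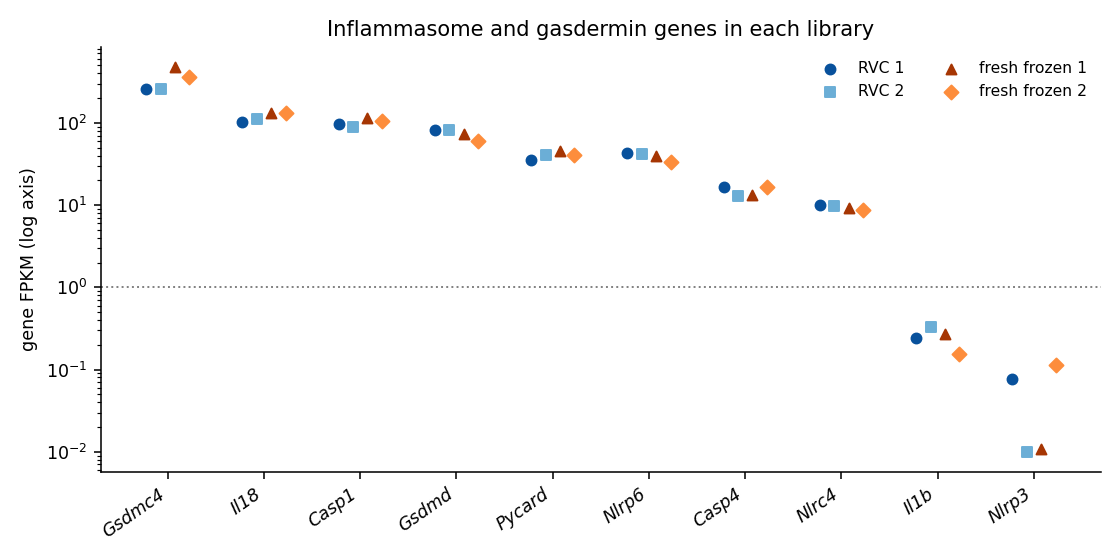
Gene FPKM on a log axis for the 10 genes, ordered by mean, with 1 point for each of the 4 libraries and a dotted line at 1 FPKM. Gsdmc4 sits highest, at 256 to 482 FPKM, and Il1b and Nlrp3 sit below the line in every library.

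Of the 3 sensors among the 10 genes, Nlrp6 was the most abundant. Nlrp6 (ENSMUSG00000038745, chr7:140500815-140509105, GRCm39, plus strand) encodes a sensor known mainly from intestinal epithelium. It measured 42.4 and 41.5 FPKM with RVC against 39.8 and 33.0 FPKM when fresh frozen, a mean of 39.2 ± 4.25 (SD, n = 4). Both RVC libraries were above both fresh frozen libraries, and fresh frozen 2 was the lowest. The gene was carried by 2 protein-coding transcripts in similar amounts. Nlrp6-203 held 48.6% ± 4.19 of the gene FPKM and Nlrp6-201 held 45.7% ± 4.01 (SD, n = 4). Nlrp6-203 led in RVC 2 and fresh frozen 1, and Nlrp6-201 in the other two libraries, so neither was the main form throughout. Only 0.875% ± 0.497 (SD, n = 4) of Nlrp6 was assigned to its retained-intron transcript.

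Nlrc4 (ENSMUSG00000039193, chr17:74732433-74766137, minus strand) encodes the sensor that answers bacterial flagellin and secretion-system proteins through the NAIP receptors. It measured 10.1, 9.85, 9.25 and 8.71 FPKM. Its mean was 9.48 ± 0.626 FPKM (SD, n = 4), the smallest relative spread over libraries among the 8 genes above 1 FPKM. The leading transcript, Nlrc4-201, was nearly level, at 7.71, 8.30, 7.93 and 8.33 FPKM library by library. Nlrc4-202, annotated as a target of nonsense-mediated decay, held 20.3%, 13.4%, 12.9% and 4.33% of the gene in the same order. The RVC libraries were thus the higher in the gene sum but not in the leading transcript. Nlrc4 overlaps the opposite-strand gene Slc30a6 by 867 bases. Slc30a6 measured 6.91 to 9.80 FPKM, and without a stated strand setting reads from the shared stretch cannot be told apart.

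The NAIP receptors, which bind the ligands for Nlrc4, were in part more abundant than Nlrc4 itself. Naip1, which recognises a secretion-system needle protein, measured 74.4 ± 5.70 FPKM (SD, n = 4). The ratio of Naip1 to Nlrc4 lay between 7.65 and 8.05 in the 4 libraries. Naip2 stood at 25.1 FPKM, Naip6 at 18.0 and Naip5 at 8.42, as means over 4 libraries. The NAIP genes are close relatives, so reads may have been divided between them. Nlrp6 exceeded Nlrc4 by 3.79 to 4.30 times within a library.

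Nlrp3 (ENSMUSG00000032691, chr11:59432394-59457782, plus strand) encodes the sensor that answers ion efflux and membrane damage and is best known from macrophages. It measured 0.0770 and 0.00983 FPKM with RVC against 0.0107 and 0.113 FPKM when fresh frozen. The lower confidence bound of its transcript Nlrp3-201 reached 0 in 3 libraries and was 0.0185 in RVC 1. In fresh frozen 2 most of the value came from Nlrp3-203, a short transcript whose bounds there were 0 and 0.264 FPKM. Nlrp3 was under the filter of 1 FPKM and was not compared between groups. The summed level of 9 macrophage markers was 38.5 to 61.7 FPKM, with none of the 9 at 0 in any library.

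Pycard (ENSMUSG00000030793, chr7:127588880-127593039, minus strand) encodes ASC, the adaptor that links sensors to caspase-1. Its 4 values were 35.5, 40.7, 45.0 and 41.1 FPKM, a mean of 40.6 ± 3.87 (SD, n = 4). The groups did not overlap, but RVC 2 and fresh frozen 2 lay close together. A transcript of 493 nt, Pycard-202, took 77.7% ± 1.62 (SD, n = 4) of the gene FPKM, and the transcript of 3800 nt, Pycard-201, took the rest. Since FPKM divides by length, the short form weighs strongly in the gene sum. Pycard-201 alone measured 7.25, 8.80, 10.7 and 9.65 FPKM library by library, with the same library lowest and the same highest.

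Casp1 (ENSMUSG00000025888, chr9:5298508-5307290, plus strand) and Casp4 (ENSMUSG00000033538, chr9:5308828-5336783, plus strand) are neighbours, with 1537 bases between them. Casp1, the protease of the inflammasome, measured 97.8 and 89.7 FPKM with RVC against 115 and 105 FPKM when fresh frozen. Both fresh frozen libraries were above both RVC libraries. A single transcript, Casp1-201, held 93.6% ± 1.57 (SD, n = 4) of it. Casp4 measured 16.4, 13.0, 13.1 and 16.4 FPKM, so the groups overlapped. Casp1 exceeded Casp4 by 5.96 to 8.79 times within a library. Casp4-201 held 75.2% ± 5.32 of Casp4, and retained-intron transcripts held 13.4% ± 4.41 (SD, n = 4).
The 250 bases before a RefSeq start of Casp4, chr9:5308849, are shown (GRCm38.p6 table, chr9:5308599-5308848 by match to GRCm39, plus strand). They were chosen because they hold 3 matches to the kappa B core GGGNNNTTCC, in capitals, searched on both strands.
Casp4 upstream: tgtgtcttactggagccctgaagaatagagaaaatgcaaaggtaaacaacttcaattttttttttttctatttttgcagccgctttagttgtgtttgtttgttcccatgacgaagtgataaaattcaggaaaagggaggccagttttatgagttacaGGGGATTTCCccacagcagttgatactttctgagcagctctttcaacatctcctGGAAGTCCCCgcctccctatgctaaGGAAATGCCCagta
The matches begin at -93, -39 and -14 from this RefSeq start, where Casp4-201 also begins in the deposited values. Casp4-206 begins earlier, at chr9:5308828, so the match at -14 lies inside that transcript. From a second RefSeq start, chr9:5308860, the same matches begin at -104, -50 and -25. A match was found in 4.65% of 32536 upstream windows of this length. Among the 8 members with a RefSeq window, Casp4 was the only 1 whose window held a match. A match describes the letters and is not a measured binding site.

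The cytokine genes stood far apart. Il18 (ENSMUSG00000039217, chr9:50466127-50493140, plus strand), the precursor of interleukin-18, measured 101, 110.5, 129.8 and 133 FPKM in the 4 libraries. Il1b (ENSMUSG00000027398, chr2:129206490-129213059, minus strand), the precursor of interleukin-1 beta, measured 0.242, 0.325, 0.272 and 0.156 FPKM in the same order. Il18 was 340 to 854 times Il1b within a library. The leading Il1b transcript had a coverage of 0.470 to 1.02 reads per base, and its lower confidence bound reached 0 in fresh frozen 2. Il1b lies wholly under the opposite-strand noncoding gene Gm14023, which measured 0.0924 to 0.310 FPKM, so reads of the 2 genes could be mixed. Il1b was under the filter and was not compared between groups. Of 9 neutrophil markers, Ly6g measured 260 ± 68.9 FPKM (SD, n = 4). Cxcr2 was the highest of the others at 0.172 to 0.321 FPKM, and S100a8, S100a9, Mpo and Ngp reached at most 0.111 FPKM in any library.

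The Il18 level was divided among transcripts with different starts. Il18-204, whose start lies 10547 bases inside the gene, measured 83.7 and 84.4 FPKM with RVC against 93.5 and 94.1 FPKM when fresh frozen, 75.5% ± 5.59 (SD, n = 4) of the gene. Il18-203, from the distal start, measured 16.4, 16.3, 15.7 and 19.1 FPKM library by library, or 14.4% ± 1.71 (SD, n = 4). Il18-202, which starts further in and has the same ends as Il18-201, differed most between libraries. It measured 0.0795 FPKM in RVC 1, with bounds of 0 and 0.321, and 7.49 in RVC 2, with bounds of 5.43 and 9.55. In fresh frozen 1 it measured 19.4 and in fresh frozen 2 18.2, with lower bounds of 16.1 and 15.4. Part of the gap between the groups in the Il18 sum therefore sits in this one transcript, and the split of reads among overlapping transcripts is a likelihood estimate.
Windows of 250 bases are shown for Il18 and Il1b because they lie before the transcripts just described. The distal Il18 window ends at a RefSeq start, chr9:50466000, whereas Il18-203 begins at chr9:50466127 in the deposited values. Capitals mark a TATA box (TATAAA, either strand) in the Il18 distal and Il1b windows and a kappa B core in the window of Il18-204.
Il18 distal start: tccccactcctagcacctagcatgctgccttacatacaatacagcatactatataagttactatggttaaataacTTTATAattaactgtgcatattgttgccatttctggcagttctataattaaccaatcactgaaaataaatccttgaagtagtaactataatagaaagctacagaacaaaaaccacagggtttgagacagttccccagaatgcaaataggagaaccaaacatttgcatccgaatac
Il18-204 start: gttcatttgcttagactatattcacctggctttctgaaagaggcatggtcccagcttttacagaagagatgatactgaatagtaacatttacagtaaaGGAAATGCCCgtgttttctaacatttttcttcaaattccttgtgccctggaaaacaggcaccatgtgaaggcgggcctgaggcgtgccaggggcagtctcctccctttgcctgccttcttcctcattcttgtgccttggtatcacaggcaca
Il1b start: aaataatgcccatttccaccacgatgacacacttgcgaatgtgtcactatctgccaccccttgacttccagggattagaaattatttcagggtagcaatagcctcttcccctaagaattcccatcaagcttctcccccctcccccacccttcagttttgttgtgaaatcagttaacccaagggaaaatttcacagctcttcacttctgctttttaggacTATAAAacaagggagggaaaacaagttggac
The distal Il18 window (RefSeq, GRCm38.p6 table) matched chr9:50465750-50465999 of GRCm39 on the plus strand, and the Il1b window from the same table matched chr2:129213060-129213309 on the minus strand. The Il18-204 window was read from GRCm39 at chr9:50476424-50476673, plus strand. The TATAAA match of Il1b begins at -31 on the gene's own strand. That of the distal Il18 window begins at -175 from its RefSeq start, on the other strand. Each is a match of letters and not a measured promoter element. Of the 32536 upstream windows 12.3% hold TATAAA on either strand. The interferon response core GAAANNGAAA, present in 2.98% of windows, was in none of the windows printed here.

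Gsdmd (ENSMUSG00000022575, chr15:75734176-75739257, plus strand) encodes the pore protein cut by caspase-1 and caspase-4. It measured 81.7 and 80.8 FPKM with RVC against 72.5 and 59.8 FPKM when fresh frozen, a mean of 73.7 ± 10.1 (SD, n = 4). The groups did not overlap, and fresh frozen 2 was lowest. Gsdmd-201 held 77.1% ± 4.88 of the gene and retained-intron transcripts held 17.5% ± 4.05 (SD, n = 4). Gsdmd-201 by itself measured 64.3, 59.0, 60.4 and 43.9 FPKM library by library, so on this transcript the groups overlapped.

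**Figure D2:**
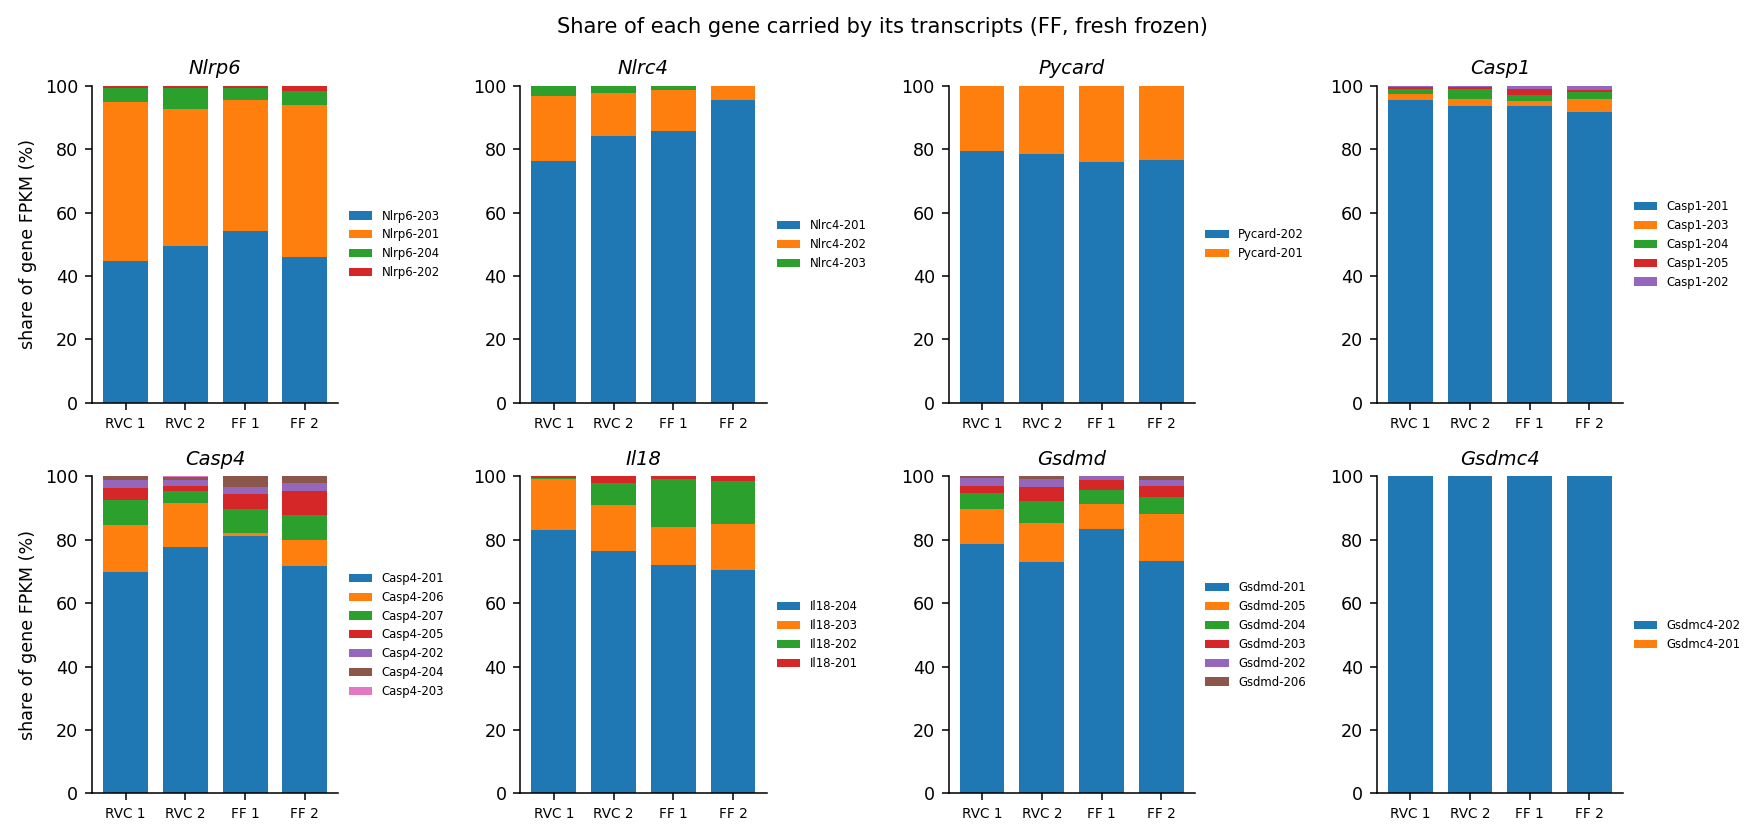
Share of gene FPKM, in percent, carried by each transcript in each of the 4 libraries, for the 8 genes above 1 FPKM. Gsdmc4 and Casp1 rest on 1 transcript, Nlrp6 on 2 of similar share, and the share of Il18-202 runs from 0.0788% in RVC 1 to 14.9% in fresh frozen 1.

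Gsdmc4 was the most abundant of the 10 genes and had the widest difference between groups. Gsdmc4 (ENSMUSG00000055748, chr15:63763113-63784146, minus strand) belongs to the gasdermin C genes, which in mouse intestine are expressed in epithelium and are known to increase in type 2 immune responses. It measured 259.5 and 256 FPKM with RVC against 482 and 361 FPKM when fresh frozen. The RVC libraries were nearly equal, both fresh frozen libraries were above them, and the fresh frozen libraries differed by 1.33 times. Practically all of it was assigned to Gsdmc4-202, whose confidence bounds in RVC 1 were 248 and 271 FPKM and in fresh frozen 2 were 345 and 377. The bounds of the RVC libraries thus did not reach those of the fresh frozen libraries, although they cover counting and assignment only and not the spread between animals.

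Gsdmc4 lies in a row of related genes on chromosome 15 with Gsdmc, Gsdmc2 and Gsdmc3, all on the minus strand. The coding sequence of Gsdmc4 was 93% identical to that of Gsdmc2 and of Gsdmc3 and 82.2% identical to that of Gsdmc, while Gsdmc2 and Gsdmc3 were 97.1% identical. Of the stretches of 75 nt in Gsdmc4-202, 28.5% also occur in transcripts of the other genes, as do 8.83% of stretches of 150 nt, so part of the reads could have come from more than 1 gene. A pair of coding windows of 60 bases (GENCODE vM39, GRCm39) is printed to show how near the copies are. Capitals mark bases that differ from Gsdmc4. The opening 60 bases, coding bases 1 to 60, are the same in Gsdmc4, Gsdmc2 and Gsdmc3 and differ at 7 bases in Gsdmc.
Gsdmc4, opening window: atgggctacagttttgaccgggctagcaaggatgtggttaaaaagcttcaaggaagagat
Gsdmc, opening window: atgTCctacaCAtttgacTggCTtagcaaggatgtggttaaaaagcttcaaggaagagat
Coding bases 823 to 882 of Gsdmc4 (chr15:63765666-63765725) are the window with the most differences summed over Gsdmc2, with 11 bases, and Gsdmc3, with 8. Only windows in codon steps and without a gap in any of these genes, Gsdmc included, were considered. Gsdmc was not counted in the sum, and it differs from Gsdmc4 there by 7 bases, as in the opening window.
Gsdmc4, divergent window: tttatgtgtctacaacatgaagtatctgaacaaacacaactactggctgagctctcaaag
Gsdmc2, divergent window: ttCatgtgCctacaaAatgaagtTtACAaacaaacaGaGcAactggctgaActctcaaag
Gsdmc3, divergent window: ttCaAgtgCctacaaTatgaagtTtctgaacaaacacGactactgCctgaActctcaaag
Gsdmc, divergent window: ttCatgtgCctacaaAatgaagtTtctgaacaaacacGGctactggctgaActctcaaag
The opening window of Gsdmc4 is at chr15:63774720-63774779 and that of Gsdmc at chr15:63676382-63676441. The divergent window is at chr15:63698719-63698778 in Gsdmc2, chr15:63732149-63732208 in Gsdmc3 and chr15:63650495-63650554 in Gsdmc.

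The other gasdermin C genes were likewise highest in fresh frozen 1 and next in fresh frozen 2, at lower levels. Gsdmc2 measured 66.9, 70.4, 143 and 80.2 FPKM. Gsdmc3 measured 38.3 and 38.4 FPKM with RVC against 77.3 and 42.3 FPKM when fresh frozen. Fresh frozen 1 stood above the other three libraries for both genes, by 1.78 times fresh frozen 2 for Gsdmc2 and 1.83 times for Gsdmc3, a wider gap than the 1.33 times of Gsdmc4. Gsdmc measured 6.74, 7.10, 13.6 and 9.99 FPKM library by library. Relative to the RVC mean, fresh frozen 2 was 1.40 times as high for Gsdmc4 and 1.44 times for Gsdmc, but 1.17 and 1.10 times for Gsdmc2 and Gsdmc3. Because the copies share sequence, their like order is not 4 independent observations.

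Gsdmcl2, a pseudogene of the family chosen after its values were seen, lies between Gsdmc3 and Gsdmc4 on the plus strand. Nearly all of its level came from the single-exon noncoding transcript Gsdmcl2-204 (chr15:63760451-63762361), which ends 751 bases from the end of Gsdmc4, tail to tail. It measured 20.8, 18.7, 32.6 and 24.3 FPKM, the same order as Gsdmc4 by group. The 5 genes summed to 392, 390.2, 748 and 518 FPKM library by library, and Gsdmc4 held 66.4% ± 2.30 (SD, n = 4) of the sum.

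**Figure D3:**
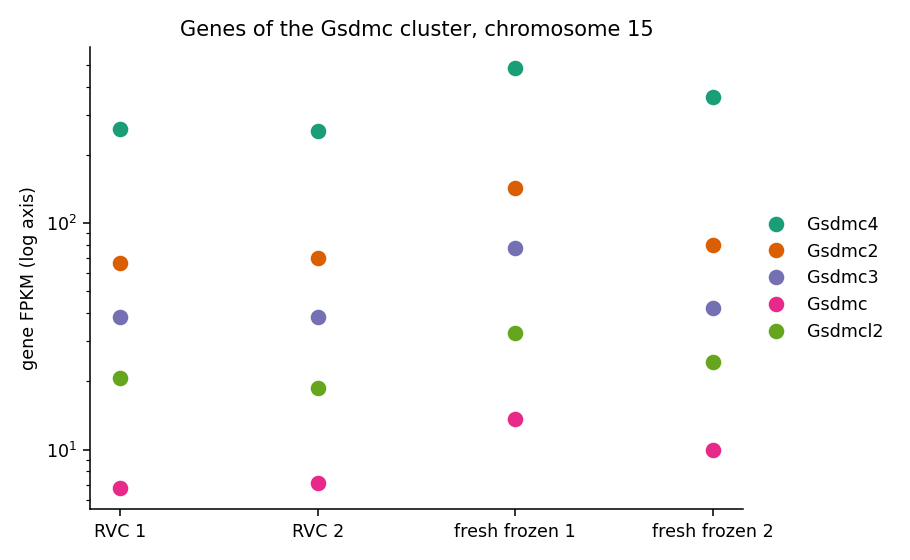
Gene FPKM on a log axis for Gsdmc4 and 4 neighbouring family genes in each library. All 5 genes are highest in fresh frozen 1, and Gsdmc4 is above the others in every library, at 256 to 482 FPKM.

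The remaining gasdermins were low. Gsdme, a pore protein cut by caspase-3, measured 1.93 and 1.56 FPKM with RVC against 2.26 and 3.09 FPKM when fresh frozen. Gsdma measured 0.447 to 0.795 FPKM, Gsdma2 at most 0.0344, and Gsdma3 and Pjvk were listed at 0 in all 4 libraries. Gsdmc4 was 3.18 and 3.16 times Gsdmd with RVC against 6.65 and 6.04 times when fresh frozen, so this ratio was similar within each group and differed between them. The ratio was formed from genes already seen to differ in opposite directions and was not tested.

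In the comparison of RVC with fresh frozen by limma, 0 of the 8 genes that passed the filter had an adjusted p under 0.05 (Benjamini-Hochberg over 13771 genes, of which 0.0363% passed). At an unadjusted p under 0.05 there were 3 of 8, beside 18.4% of all genes tested. This count depended on the setting. It was 2 with no scaling, no filter, no length minimum or no trend. It was 1 on the most abundant transcript and 1 with a block on sample number. With 1 library left out, a group of 1 has no spread of its own, so no count by p is given for those runs. Over these runs the log2 fold change, RVC less fresh frozen, was -0.88 to -0.50 for Gsdmc4 and -0.37 to -0.25 for Il18. For Gsdmd it was 0.18 to 0.42. Of the 3 genes, Gsdmd was higher in RVC (9.38% of all genes), and Gsdmc4 and Il18 were lower (8.99%). The groups did not overlap for 7 of 8, beside 53.2% of all genes tested. RVC was the higher group for 3 of these, Nlrp6, Nlrc4 and Gsdmd (26.5% of all genes), and the lower for 4, Pycard, Casp1, Il18 and Gsdmc4 (26.6%). The median log2 fold change of the 8 genes was -0.08, beside 0.0066 over all genes tested. Neither Nlrp3 nor Il1b entered this comparison.

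The difference was widest for Gsdmc4, whose log2 fold change, RVC less fresh frozen on log2(scaled FPKM + 1), was -0.69 (SE 0.152, limma adjusted p = 0.130), with fresh frozen 1.63 times as high. Il18 had a log2 fold change of -0.31 (SE 0.109, limma adjusted p = 0.212), a ratio of 1.24. Taken on its most abundant transcript instead of the gene sum, the Il18 value was -0.13. Gsdmd was higher in RVC, by 0.30 on the log2 scale (SE 0.120, limma adjusted p = 0.250). The other differences were -0.22 for Casp1, 0.21 for Nlrp6, -0.17 for Pycard and 0.14 for Nlrc4, with limma adjusted p of 0.322 to 0.513. Without fresh frozen 2, the lowest library for both genes, the difference was 0.18 for Gsdmd and 0.09 for Nlrp6. For Pycard it was -0.08 without RVC 1 and -0.26 without RVC 2, and on the most abundant transcript it was -0.10. The Nlrc4 difference on its most abundant transcript was 0.00056. For Casp4 the log2 fold change was 0.0029 (SE 0.162, limma adjusted p = 0.994), and it lay on either side of 0 depending on which library was left out. With 2 libraries a group, a p above the threshold does not show that the levels were alike.

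Marker lists of other tissue layers and cells were compared in the same way, and by limma 0 of their tested genes had an adjusted p under 0.05. Of 6 smooth muscle markers 6 had an unadjusted p under 0.05 and were higher in RVC, beside 9.38% of all genes tested in that direction. Their summed level was 1089, 1629, 666 and 718 FPKM, with none at 0. By the same measure, 4 of 5 endothelial markers, 4 of 8 macrophage markers, 2 of 4 plasma cell markers and 1 of 7 colonocyte markers were higher in RVC. So was Ly6g, the single neutrophil marker tested. The others of its list reached at most 0.321 FPKM in any library, so Ly6g is not taken as a measure of neutrophils. Only 1 of 7 goblet cell markers was lower, beside 8.99% of all genes. At that p there were 0 of 4 markers of enteric neurons and glia, 0 of 2 each of tuft cells, Paneth cells and ileal enterocytes, and 0 of 1 of T cells and innate lymphoid cells. The summed level of 7 colonocyte markers was 18191, 17173, 16342 and 12184 FPKM. Their part in the values of the 10 genes was not tested, and in bulk tissue fewer cells of a type and less RNA per cell cannot be told apart.

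At the level of transcripts, 23 of the 39 passed the filter and 0 had an adjusted p under 0.05 (limma, Benjamini-Hochberg over 24174 transcripts, of which 0.00414% passed). At an unadjusted p under 0.05 there were 3, beside 15.5% of all transcripts tested. Of them 1 was higher in RVC (8.1% of all transcripts) and 2 were lower (7.36%). The groups did not overlap for 12 of 23, beside 50.2% of all transcripts tested. The leading transcript was the same in all 4 libraries for 8 of the 10 genes, the exceptions being Nlrp6 and Nlrp3.

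**Figure D4:**
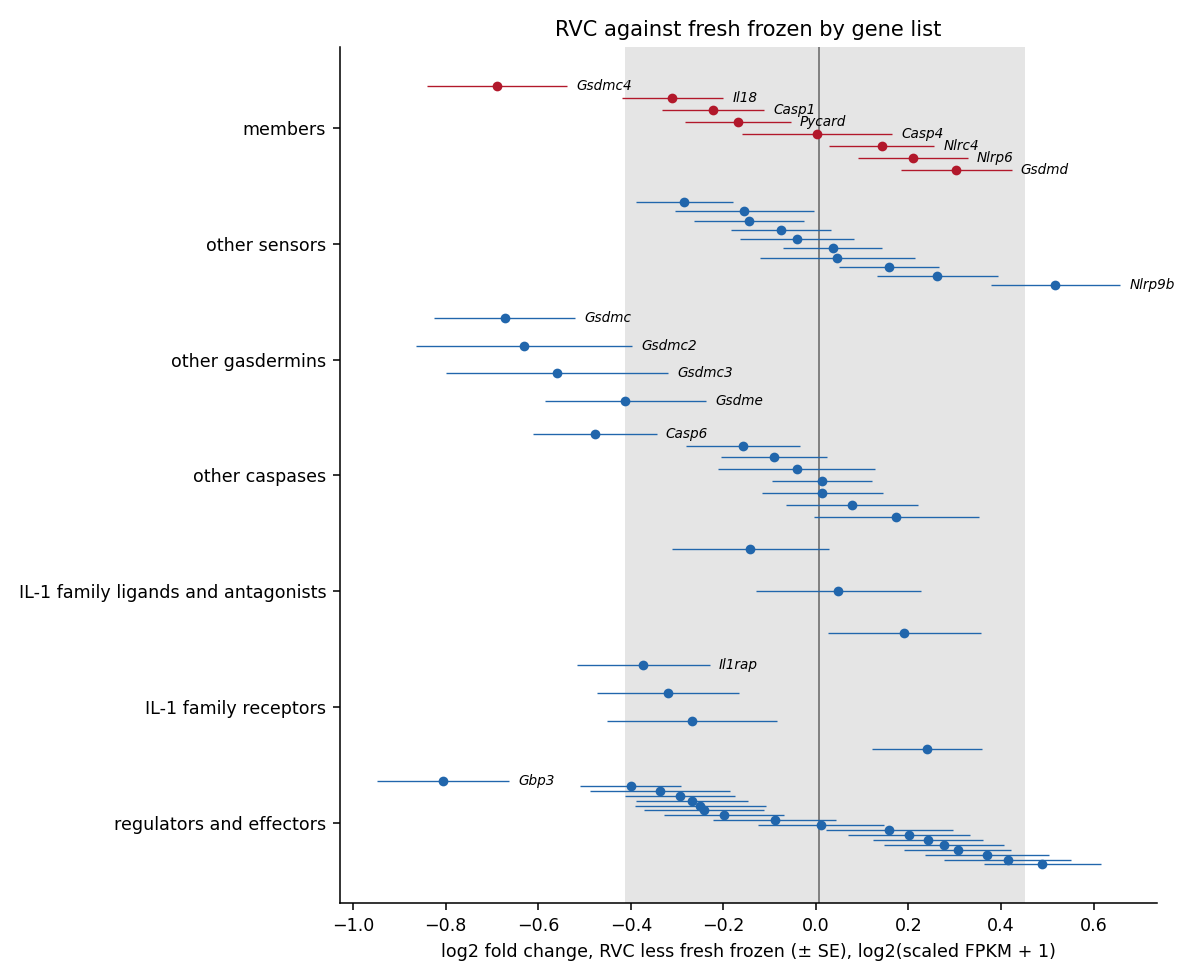
Log2 fold change, RVC less fresh frozen, with its SE, for the 8 members tested (red) and for 47 further pathway genes (blue), by list. The grey band spans the 5th to 95th percentile of all genes tested, -0.41 to 0.45, and the line is their median. Gsdmc4, Gsdmc, Gsdmc2, Gsdmc3, Gbp3 and Casp6 lie left of the band with Gsdme at its edge, and Nlrp9b and Ripk3 lie right of it.

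Beyond the 10 genes, 6 lists of pathway genes held 71 symbols, of which 69 were measured and 47 passed the filter. By limma none of the 47 had an adjusted p under 0.05, and 14 had an unadjusted p under 0.05, beside 18.4% of all genes. RVC was the higher group for 5 (9.38% of all genes) and the lower for 9 (8.99%). How far the 14 rest on single libraries was not judged by p, because a group of 1 library has no spread of its own. The median log2 fold change of the 47 was -0.08. It was -0.04 without RVC 2, -0.01 without fresh frozen 1 and -0.15 without fresh frozen 2. The median without RVC 1 is not given here, so these values are not the full range. Over the pathway genes with a mean of at least 5 FPKM the median was 0.0085. The other gasdermins were the list with the lowest median, -0.59 over 4 genes. Of these, Gsdmc (log2 fold change -0.67, limma adjusted p = 0.131), Gsdmc2 (-0.63, 0.228) and Gsdme (-0.41, 0.271) had an unadjusted p under 0.05, and Gsdmc3 (-0.56, 0.274) did not.

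Among the other sensors 10 of 16 passed the filter, with a median log2 fold change of -0.0025. At an unadjusted p under 0.05 there was 1 gene in each direction, 2 of 10 beside 18.4% of all genes. Naip1 had the highest level of the list and Nlrp10, at 1.75 ± 0.223 FPKM (SD, n = 4), the lowest of those above 1 FPKM. Nlrp9b, a sensor described in intestinal epithelium, had the smallest p, with a log2 fold change of 0.52 (limma adjusted p = 0.156). It measured 15.7 and 20.3 FPKM in the RVC libraries and 12.2 in both fresh frozen libraries. Aim2, the sensor of cytosolic DNA, stood at 34.9 FPKM, close to Nlrp6, and Nlrp1b at 5.29. The list also held Mefv, Nlrp12 and Nlrp1a, each under 0.1 FPKM in every library, at a level like that of Nlrp3.

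All 8 other caspases passed the filter, with a median log2 fold change of -0.014. Casp12 was the lowest at 3.35 ± 0.654 FPKM (SD, n = 4). Casp6 had the smallest p of the list, with a log2 fold change of -0.48 (limma adjusted p = 0.160). Casp8, which can also cut gasdermins, measured 33.3 FPKM on average.

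The partners of the cytokines were uneven. The interleukin-1 receptor antagonist Il1rn measured 41.9 ± 7.05 FPKM (SD, n = 4), 150 to 226 times Il1b within a library. Il18bp, which binds and blocks interleukin-18, measured 3.60 and 2.62 FPKM with RVC against 2.47 and 2.71 FPKM when fresh frozen. Il18 exceeded Il18bp by 28.0 to 52.7 times. The antagonist was thus far above the ligand for interleukin-1 beta and the ligand far above the binding protein for interleukin-18, at the level of RNA. Il33, an alarmin of the same family, measured 2.68 ± 0.493 FPKM (SD, n = 4), the lowest of the 3 genes of its list that passed the filter.

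The receptors of these cytokines were at low levels in whole tissue. Il18r1 and Il18rap, which form the interleukin-18 receptor, measured 0.293 to 0.650 and 0.0255 to 0.253 FPKM. Il1r1 measured 1.60 ± 0.366 FPKM (SD, n = 4), and its decoy Il1r2 at most 0.283. Sigirr, an inhibitory receptor of the family, was the highest at 7.29 ± 0.816 FPKM (SD, n = 4). Il1rap, the shared signalling chain, had the smallest p, with a log2 fold change of -0.37 (limma adjusted p = 0.242). Markers of T cells and innate lymphoid cells, cells that carry the interleukin-18 receptor, summed to 2.49 to 4.20 FPKM over 6 genes.

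Of the regulators and effectors 18 of 20 passed the filter, with a median log2 fold change of -0.04. At an unadjusted p under 0.05 RVC was above fresh frozen for 4 of 18 and below it for 3, beside 9.38% and 8.99% of all genes. Txnip, a thioredoxin-binding protein reported to bind Nlrp3, was the highest at 385 ± 64.3 FPKM (SD, n = 4). P2rx7, the ATP-gated channel upstream of Nlrp3, was the lowest of those that passed, at 2.08 ± 0.461 FPKM (SD, n = 4). Gbp3, an interferon-induced GTPase, had the smallest p of all 47, with a log2 fold change of -0.81 (limma adjusted p = 0.129). It measured 2.35, 2.39, 5.45 and 4.42 FPKM. Ninj1, which ruptures the membrane after pore formation, measured 8.62 FPKM, and Serpinb1a, an inhibitor of inflammatory proteases, 269 FPKM.

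**Figure D5:**
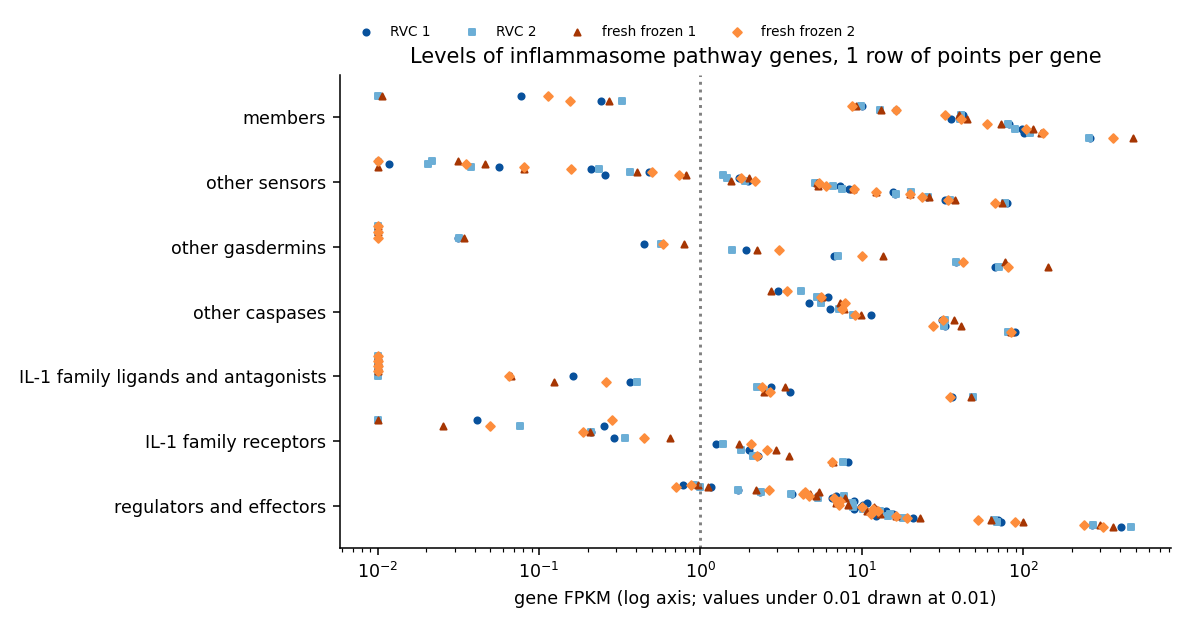
Gene FPKM on a log axis for the 10 members and 69 further pathway genes, by list, with 1 row of points per gene and 1 point per library, and a dotted line at 1 FPKM. Members lie either above 8 FPKM or below 1 FPKM, while the interleukin-1 family ligands include genes listed at 0 in all 4 libraries, drawn at the left edge.

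Gsdmc4 had the largest range over the 4 libraries among the 8 tested members, 0.90 on log2(scaled FPKM + 1). Genes of nearest pattern over the 4 libraries were sought by Euclidean distance between centred log2 values, with predicted genes (Gm and Rik names) passed over. They were Gsdmc at 0.065, Slc6a14 at 0.103 and Lnpk at 0.110. Gsdmc shares sequence with Gsdmc4, so its likeness is not an independent observation. Slc6a14, an amino acid transporter, measured 181, 184, 310.0 and 252 as scaled FPKM in the 4 libraries. Lnpk, which shapes the endoplasmic reticulum, measured 6.32, 6.33, 11.6 and 8.56 on the same scale. With 4 libraries such likeness describes these samples only.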

How the data were processed

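RNA of 4 libraries was rRNA-depleted, prepared with the KAPA HyperPrep kit and read as 150-bp pairs, per the labels' protocols. Per the submitters' processing notes, the authors aligned reads with TopHat2 2.1.1 to GRCm39 and estimated transcript abundance with Cufflinks 2.2.1. Annotation release and strand setting are not given in the sources used here. The deposited values are FPKM per transcript with confidence bounds, and coverage in reads per base, per the file headers. Exact fragment counts are unknown.

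Gene FPKM was the sum over transcripts. Libraries were scaled by median ratio, and the groups were tested on log2(scaled FPKM + 1) in R 4.3.3 by limma 3.58.1 (lmFit, eBayes with trend, two-sided, Benjamini-Hochberg over everything tested, threshold 0.05). Genes and transcripts needed a mean of at least 1 FPKM, 300 nt and status OK; 8 of 10 members passed. The pseudocount of 1 understates changes of low genes. The test was tested on simulated data. Levels and shares are mean ± SD with no test. Upstream windows of 8 of the 10 members were in the RefSeq table, and not those of Gsdmd and Gsdmc4.

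The members and lists were chosen with earlier results of these data known. Beside all members and gasdermins, the genes named per list were any past the threshold, the highest and lowest above 1 FPKM, and the smallest p; other names were chosen after their values were seen. The result of 1 gene under this rule is not reported here. 2 listed genes were not analysed here. Alternatives were another pseudocount (0.1), scaling, filter, length and status rule, no trend, a block on sample number, another gene summary, and each library left out.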

Additional observations from a re-analysis of the deposited data

How the results depend on the processing

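None of the 10 genes, and none of the 47 pathway genes, passed the adjusted threshold under any alternative run that kept all 4 libraries. The count of genes passing over the whole table was 5. It was 0 with no filter (3459 genes at an unadjusted p under 0.05), 14 with a mean of at least 5 FPKM, 0 with no trend, 0 with gene sums over transcripts of at least 300 nt, 2 on the most abundant transcript and 8 to 40 with 1 library left out. For transcripts it was 1, and 0 with no filter, 6 with a mean of at least 5 FPKM and 7 with no length minimum. With a replicate block on the sample number, 112 genes and 1 transcript passed. The groups share only a number: deviations of same-numbered libraries correlated at -0.13 across 13771 genes.

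Casp4 was the only member to change sign: -0.0014 with no scaling, -0.00033 with no length minimum, -0.026 on the most abundant transcript, and -0.16 without RVC 1 and -0.17 without fresh frozen 1, in a range of -0.165 to 0.165 with 1 library left out. For Gsdmc4 the log2 fold change was -0.50 without fresh frozen 1 and -0.88 without fresh frozen 2. Over the runs with all 4 libraries its limma adjusted p ran from 0.081 to 0.419. Of 70 recomputed levels 6 moved beyond 1 SD, each on the most abundant transcript. For Nlrp6 the difference was 0.09 without fresh frozen 2 and 0.32 without fresh frozen 1. With 1 library left in a group, that library is assumed to vary like the other group. No sequenced depth is known, and Nlrp3 and Il1b lie near the limit of these libraries.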
